A study of Mus musculus with 9 samples.

Results

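The 7 genes described here encode cytoplasmic intermediate filament proteins that neurons or their precursors make: Ina (alpha-internexin), Nefl, Nefm and Nefh (the light, medium and heavy neurofilament subunits), Prph (peripherin), Nes (nestin) and Vim (vimentin). They were taken by symbol from the deposited comparison tables and joined by Ensembl identifier to the counts of each library, which gave 7 genes of 47729 listed and 7 of the 17988 that passed the filter on low counts. The group was chosen by the level of Ina, which was lower in Dot1l(fl/fl) than in Dot1l(+/+) in these same libraries, so every member's value for that pair of genotypes is given as a description, with no test.

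The cells were midbrain dopamine (DA) neurons, sorted from C57/Bl6 mouse embryos at E15.75. Dot1l encodes the methyltransferase that modifies lysine 79 of histone H3. All groups carried Cre recombinase at the Pitx3 locus on 1 allele, active in midbrain DA neurons, and a Rosa26 reporter that makes YFP once Cre has removed its stop, and YFP-positive cells were sorted after papain dissociation. The groups differed in the floxed Dot1l allele: Dot1l(+/+) with 3 libraries, Dot1l(fl/+) with 3 libraries and Dot1l(fl/fl) with 2 libraries, while Dot1l(fl/fl) 3 was not analysed here. The methods state that several embryos were pooled for each library and that a set of the 3 genotypes came from each litter, although no label gives the litter of a replicate. The p-values therefore measure the spread between these pools.

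Intermediate filaments are rope-like polymers that give a cell its mechanical strength, and neurons change their composition as they mature. Neural precursors build them from vimentin and nestin, young postmitotic neurons add alpha-internexin, and growing axons then take up the neurofilament subunits, whose amount sets the calibre of large axons. Peripherin is found mainly in peripheral neurons and in central neurons that project to the periphery.

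The promoter sequences of the members with the highest and the lowest transcript level per kilobase, Ina and Prph, are shown because the levels described next span this range. Each is the 150 bases before the RefSeq gene start (GRCm38.p6), Ina at chr19:47014531-47014680 on the plus strand and Prph at chr15:99055024-99055173 on the plus strand. Capitals mark TATAAA (the TATA box), GGGCGG (the GC box), CCAAT and CAGCTG (an E-box), read on both strands.
Ina: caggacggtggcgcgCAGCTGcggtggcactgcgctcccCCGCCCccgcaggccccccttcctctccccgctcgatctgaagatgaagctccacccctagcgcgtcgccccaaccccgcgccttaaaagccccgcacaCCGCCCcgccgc
Prph: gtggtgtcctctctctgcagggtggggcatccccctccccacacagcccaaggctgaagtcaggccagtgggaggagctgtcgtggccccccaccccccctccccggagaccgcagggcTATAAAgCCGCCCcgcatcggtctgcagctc
The Ina window held 2 GC boxes and 1 CAGCTG, with neither TATAAA nor CCAAT. The Prph window held 1 TATAAA and 1 GC box, which do not overlap. Of 32475 promoter windows of the same length, 7.55% held TATAAA, 28.9% the GC box, 24.4% CCAAT and 8.42% CAGCTG. G and C made up 74% of the Ina window and 69.3% of the Prph window, against a median of 54% over all windows. The table also held Nes, with 2 GC boxes, and Vim, with 1 TATAAA and 1 CCAAT, and 4 of the 7 members were matched in all. These matches describe letters in a window and not binding sites. All 150 bases of the Vim window and 15 of the Nes window lay in annotated exons of the same gene, against 0 for Ina and Prph.

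On GRCm38, Ina (ENSMUSG00000034336) lies on chromosome 19 from 47014698 to 47025327. Nefl (ENSMUSG00000022055) lies on chromosome 14 from 68083863 to 68089095, and Nefm (ENSMUSG00000022054) covers 68082590 to 68124846 of the same chromosome on the opposite strand. The annotated span of Nefm thus encloses Nefl, and their exons share 1108 bases. Ina shares 456 exon bases with Nt5c2 on the opposite strand. The library kit preserved strand, but whether the counting used strand was not given in the sources used here, so reads from shared bases may have been assigned to either gene. The others are Nefh (ENSMUSG00000020396) on chromosome 11 from 4938754 to 4948064, Prph (ENSMUSG00000023484) on chromosome 15 from 99055174 to 99058978, Nes (ENSMUSG00000004891) on chromosome 3 from 87971078 to 87980451 and Vim (ENSMUSG00000026728) on chromosome 2 from 13573927 to 13582826.

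The libraries held between 13616922 and 43674673 counts, and those labelled Dot1l(fl/fl) were the shallowest. Dot1l itself was at 105.2, 84.6 and 94.6 CPM (counts divided by the normalised library total, on the usual common scale) in Dot1l(+/+), 75.5, 65.6 and 76.2 in Dot1l(fl/+) and 64.9 and 99.1 in both that bear the Dot1l(fl/fl) label. The library labelled Dot1l(fl/fl) 2 thus lay inside the Dot1l(+/+) range, so the level of Dot1l does not set it apart from those libraries. The counts cover the whole gene and the floxed exon was not counted by itself, so this level does not check the excision directly. Directions drawn from the Dot1l(fl/fl) label below rest on this library and on the library labelled Dot1l(fl/fl) 1, together called the Dot1l(fl/fl) pair. The 10 markers of midbrain DA neurons, among them the synthesis enzyme Ddc and Aldh1a1, passed the filter, with a summed level of 5831 to 6702 CPM in Dot1l(+/+), 5824 to 6245 in Dot1l(fl/+) and 4674 to 5652 in the Dot1l(fl/fl) pair, the latter below all other libraries.

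Ina was the most abundant of the 7 transcripts per kilobase. In Dot1l(+/+) it stood at 421 ± 4.66 CPM per kilobase of exon (SD, n = 3), rank 38 of 17925 genes with a length. Nefl followed at 52.8 ± 4.86 CPM per kilobase, and Vim, the filament protein shared by precursors, glia and mesenchyme, at 34.7 ± 0.842. The level of Ina was thus 7.96-fold that of Nefl. Nefm stood at 15.0 ± 1.63 CPM per kilobase and Nes, the classical neural stem cell marker, at 2.93 ± 0.731. Nefh, the subunit that axons add last, stood at 1.41 ± 0.480 and Prph at 0.455 ± 0.199 CPM per kilobase, rank 14143. Each gene lay above the next by between 1.52-fold and 7.96-fold. The same order was found in Dot1l(fl/+) and in the Dot1l(fl/fl) pair, and in no genotype did the library ranges of neighbours in this order overlap. The order of Nefl and Vim depended on the length used, since with the longest transcript in place of all exons Vim stood at 56.3 and Nefm at 23.6 CPM per kilobase. The ranks, by contrast, moved for Ina from 38 in Dot1l(+/+) to 49 in Dot1l(fl/+) and 67 for Dot1l(fl/fl).

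**Figure D1:**
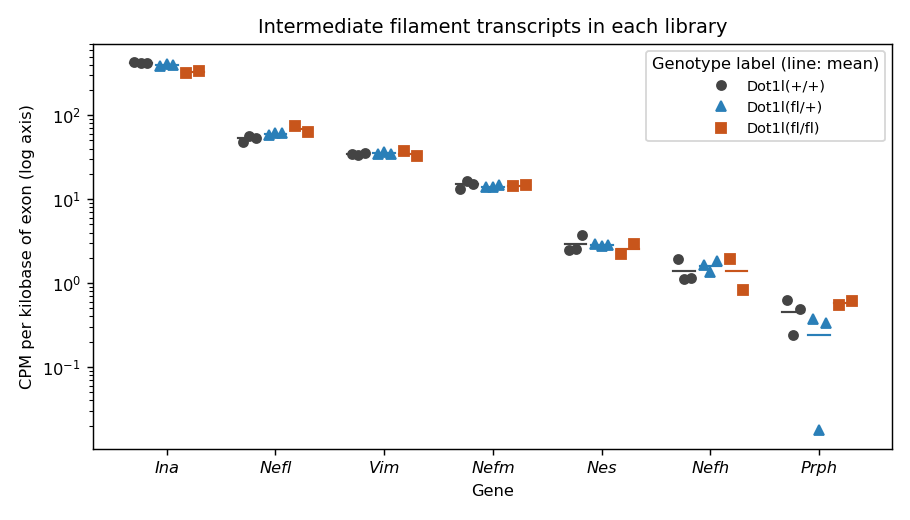
Level of each gene in CPM per kilobase of exon (log axis) in each of the 8 libraries, by genotype label, with lines at the group means. Ina stood at the top in every library, and the lowest point is Prph in a Dot1l(fl/+) library with 1 read.

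Ina was lower with each further floxed allele in every library, with a difference of -22.3% between Dot1l(fl/fl) and Dot1l(+/+). Its level was 1380, 1352 and 1357 CPM in Dot1l(+/+), 1256, 1314 and 1274 in Dot1l(fl/+) and 1031 and 1086 in the Dot1l(fl/fl) pair. No library of a genotype overlapped another genotype, and the spread within each genotype was small, with an SD of 15.1, 29.5 and 38.5 CPM. The log2 difference was -0.36 ± 0.07 (SE) for Dot1l(fl/fl) against Dot1l(+/+), the value that picked this group of genes. Over the same libraries 9 of the 10 DA neuron markers had a difference below 0, with a median of -0.29, and 6 of them did not overlap. Of 12 markers of radial glia and progenitors other than Nes and Vim, 11 were also below 0. Their median was -0.30, and 3 of them did not overlap and were lower. The part of either list in the level of Ina was not tested. In bulk RNA, fewer cells of a type and less RNA per cell cannot be told apart. Across all genes tested, 11.6% were lower in both libraries labelled Dot1l(fl/fl) than in every Dot1l(+/+) library, or 23.7% without overlap in either direction, and nothing is read from Ina being among them. An unadjusted edgeR p under 0.05 was found for 9.27% of the genes. Between these genotypes edgeR's quasi-likelihood test called 0% of the genes and DESeq2 3.7% of the 5779 it gave an adjusted p.

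The value that picked the group did not use the Dot1l(fl/+) libraries, although these are compared with the same controls. Ina differed by -0.09 ± 0.07 on the log2 scale between Dot1l(fl/+) and Dot1l(+/+), with a 95% interval of -0.22 to 0.05, and did not pass the test (edgeR adjusted p = 0.960). The adjusted p lay between 0.728 and 1 over the alternatives. Between Dot1l(fl/fl) and Dot1l(fl/+), a comparison that shares the Dot1l(fl/fl) libraries with the choice, the difference was -0.28 ± 0.07 (edgeR adjusted p = 0.925). There the edgeR p before adjustment was 0.0010, the DESeq2 adjusted p was 0.151, and the adjusted p lay between 0.150 and 1 over the alternatives.

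Nefl, the core subunit that every neurofilament requires, ran the opposite way. Its level was 161, 193 and 181 CPM in Dot1l(+/+), 197, 206 and 209 in Dot1l(fl/+) and 250 and 213 in the Dot1l(fl/fl) pair. Again no library of a genotype overlapped another, but the gaps were small beside the spread: the highest Dot1l(+/+) library was at 193 CPM and the lowest Dot1l(fl/+) library at 197. The log2 difference was 0.37 ± 0.11 for Dot1l(fl/fl) against Dot1l(+/+), or 29.6% higher, given as a description. It was 0.19 ± 0.10 for Dot1l(fl/+) against Dot1l(+/+), with an interval of -0.01 to 0.40, and did not pass the test (edgeR adjusted p = 0.940). Between Dot1l(fl/fl) and Dot1l(fl/+) it was 0.18 ± 0.11 (edgeR adjusted p = 0.998), and fell to 0.05 when Dot1l(fl/fl) 1 was dropped. A stepwise order in every library, as in Ina, was found for 0.439% of all genes tested going down and, as in Nefl, for 0.384% going up. The other 5 members showed neither. Both orders include the difference between Dot1l(fl/fl) and Dot1l(+/+) that chose the members, so nothing is read from these shares.

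**Figure D2:**
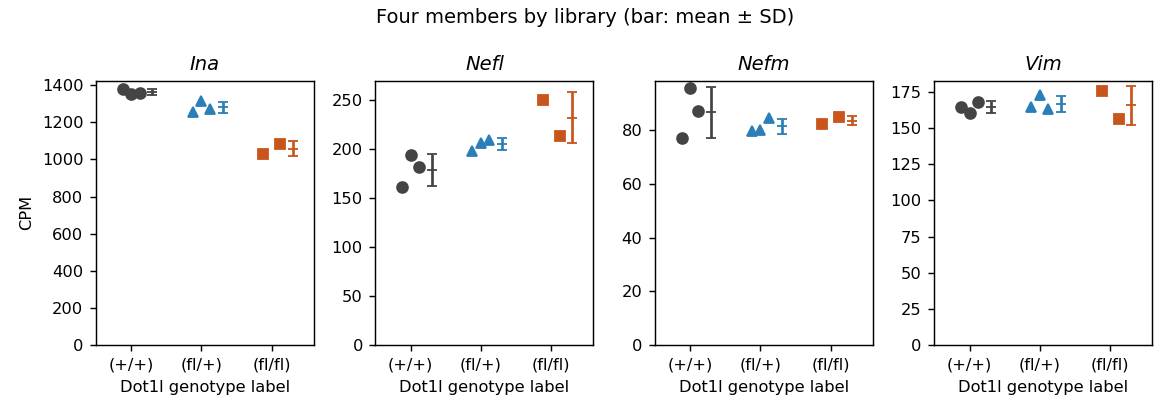
CPM of Ina, Nefl, Nefm and Vim in each library by Dot1l genotype label, with bars at mean ± SD. Ina ran from 1380 at the highest to 1031 at the lowest, Nefl from 161 to 250, and the groups of Nefm and Vim overlapped.

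Nefm, the medium subunit that forms cross-bridges together with Nefh, did not follow Nefl. It was at 77.0, 95.8 and 87.3 CPM in Dot1l(+/+), 79.9, 80.0 and 84.5 in Dot1l(fl/+) and 82.4 and 84.9 in the Dot1l(fl/fl) pair. All other libraries lay inside the Dot1l(+/+) range. The log2 difference was -0.09 ± 0.11 for Dot1l(fl/+) against Dot1l(+/+) (edgeR adjusted p = 0.997), and -0.05 ± 0.12 for Dot1l(fl/fl) against Dot1l(+/+). Without Dot1l(+/+) 1 these Nefm differences were -0.17 and -0.13, and without Dot1l(+/+) 2 they were -0.013 and 0.025.

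Nefh and Prph were the least abundant members. Nefh had between 46 and 207 counts in a library, a mean of 5.62 ± 1.92 CPM in Dot1l(+/+) (n = 3), 6.40 ± 0.937 in Dot1l(fl/+) (n = 3) and 5.54 ± 3.15 for Dot1l(fl/fl) (n = 2), with all groups overlapping. The libraries labelled Dot1l(fl/fl) differed more from each other, at 7.76 and 3.31 CPM, than any of the group means did. Prph had 33, 17 and 42 counts in Dot1l(+/+), 22, 1 and 19 in Dot1l(fl/+) and 20 and 17 in the Dot1l(fl/fl) pair. The library Dot1l(fl/+) 2, with its single read, stood apart from the other 7, and the log2 difference of -0.91 ± 1.13 for Dot1l(fl/+) against Dot1l(+/+) had a large error (edgeR adjusted p = 0.997). Against Dot1l(fl/+), Prph was higher in both libraries labelled Dot1l(fl/fl), at 1.26 ± 1.25 on the log2 scale (edgeR adjusted p = 0.998). Without Dot1l(fl/+) 2 these Prph differences were -0.37 and 0.72 on the log2 scale.

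The precursor filament genes did not separate the genotypes. Vim was at 165, 160.45 and 168 CPM in Dot1l(+/+), 164, 173 and 163 in Dot1l(fl/+) and 175 and 156 in the Dot1l(fl/fl) pair, so that the highest library was 1.12-fold the lowest over all 8. Its log2 difference between Dot1l(fl/+) and Dot1l(+/+) was 0.02 ± 0.09, with an interval of -0.17 to 0.21 (edgeR adjusted p = 0.997). Nes was at 15.749, 16.4 and 24.2 CPM in Dot1l(+/+), 19.0, 17.9 and 18.5 in Dot1l(fl/+) and 14.2 and 18.7 in the Dot1l(fl/fl) pair. The highest and the lowest of these, Dot1l(+/+) 3 and the library labelled Dot1l(fl/fl) 1, were also the highest and the lowest for the sum of 12 other markers of radial glia and progenitors, led by Msi1 and Fabp7, at 218 and 149 CPM. That sum was 177 to 218 CPM in Dot1l(+/+), 170 to 195 in Dot1l(fl/+) and 149 to 179 for Dot1l(fl/fl), and its part in the level of Nes was not tested. The other libraries did not share an order. Dot1l(fl/+) 1 had Nes at 19.0 CPM with a sum of 170, and Dot1l(+/+) 2 had Nes at 16.4 with a sum of 194. The log2 difference of Nes was -0.03 ± 0.20 for Dot1l(fl/+) against Dot1l(+/+) (edgeR adjusted p = 0.997) and changed sign with the processing, as did several other values near 0.

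**Figure D3:**
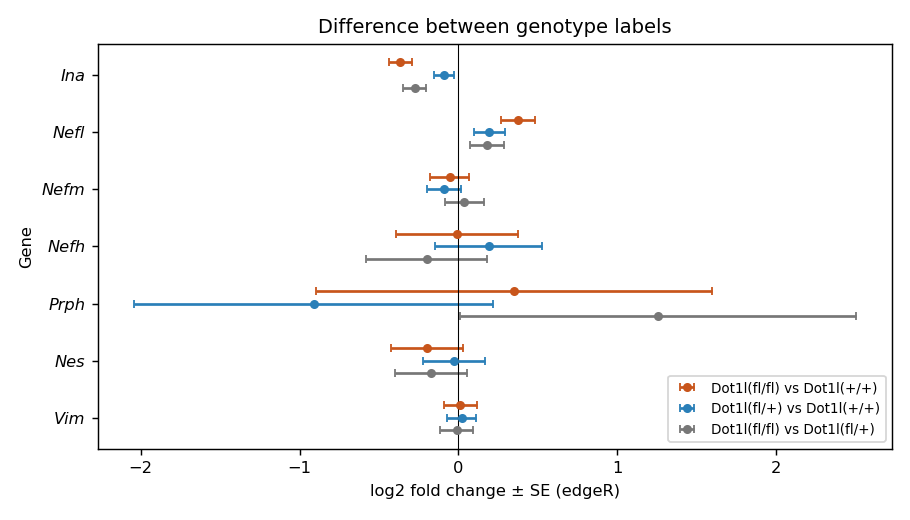
log2 fold change ± SE of the 7 genes in the 3 comparisons of genotype labels (edgeR, all 8 libraries in a single fit). Ina lay below 0 and Nefl above 0 in all 3, Nefm and Vim lay within 0.1 of 0, Nes lay between -0.20 and -0.03, and the bars of Nefh and Prph were widest.

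Of the 7 members, edgeR and DESeq2 each called 0 in either comparison that was tested, Dot1l(fl/+) with Dot1l(+/+) or Dot1l(fl/+) with Dot1l(fl/fl). The background was 0% by edgeR in both, and 0% and 0.00422% by DESeq2. With an unadjusted edgeR p under 0.05 there were 0 members in the first comparison, where 5.02% of all genes were under it, and 1 in the second, Ina, where 4.02% were. In Dot1l(fl/+) against Dot1l(+/+), 2 members did not overlap between the groups, Ina lower and Nefl higher, against 5.97% of all genes lower, 5.56% higher and 11.5% in either direction. In Dot1l(fl/fl) against Dot1l(fl/+), 3 did not overlap, Ina lower and Nefl and Prph higher, against 9.57% of all genes lower, 10.2% higher and 19.8% in either direction. The same Dot1l(fl/fl) libraries entered the choice of the group by Ina, so nothing is read from the counts of members in this comparison.

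Since the subunits assemble together, their transcripts were also set against each other within each library, a measure that does not depend on library size. Ina made up 85.9 ± 1.19% of the summed CPM per kilobase of Ina, Nefl, Nefm and Nefh in Dot1l(+/+) (n = 3), 83.9 ± 0.420% in Dot1l(fl/+) (n = 3) and 79.5 ± 2.17% (n = 2) in the Dot1l(fl/fl) pair. The share of Nefl was 10.8%, 12.8% and 16.7%, that of Nefm 3.06%, 2.99% and 3.52%, and the mean share of Nefh at most 0.340%. The sum itself was 490 ± 1.96 CPM per kilobase in Dot1l(+/+), 472 ± 10.04 in Dot1l(fl/+) and 411 ± 3.72 for Dot1l(fl/fl).

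The ratio of Ina to Nefl was 8.95, 7.30 and 7.80 in Dot1l(+/+), 6.64, 6.65 and 6.35 in Dot1l(fl/+) and 4.31 and 5.32 in the Dot1l(fl/fl) pair. The groups were in a stepwise order with no overlap. This order follows from the opposite stepwise orders of Ina and Nefl. It also includes the difference between Dot1l(fl/fl) and Dot1l(+/+) that chose the members, so nothing is read from it. Between Dot1l(fl/+) and Dot1l(+/+) the log2 ratio differed by -0.29 (exact two-sided permutation test, p = 0.1, the smallest that 3 libraries against 3 allow). The ratio of Nefm to Nefl had the narrowest spread in Dot1l(+/+), at 0.280, 0.290 and 0.281, and was 0.236, 0.227 and 0.236 in Dot1l(fl/+) and 0.193 and 0.233 in the Dot1l(fl/fl) pair. All Dot1l(fl/+) libraries thus lay below all Dot1l(+/+) libraries, by 0.28 on the log2 scale (exact two-sided permutation test, p = 0.1). These exon sets overlap, as given above, and the part of shared reads in this ratio was not tested. The ratio of Nes to Vim did not separate these genotypes, with a log2 difference of -0.02 (exact two-sided permutation test, p = 1). The 3 ratios were tested as given, none can pass 0.05 at this size, and Ina to Nefl and Nefm to Nefl share their denominator.

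**Figure D4:**
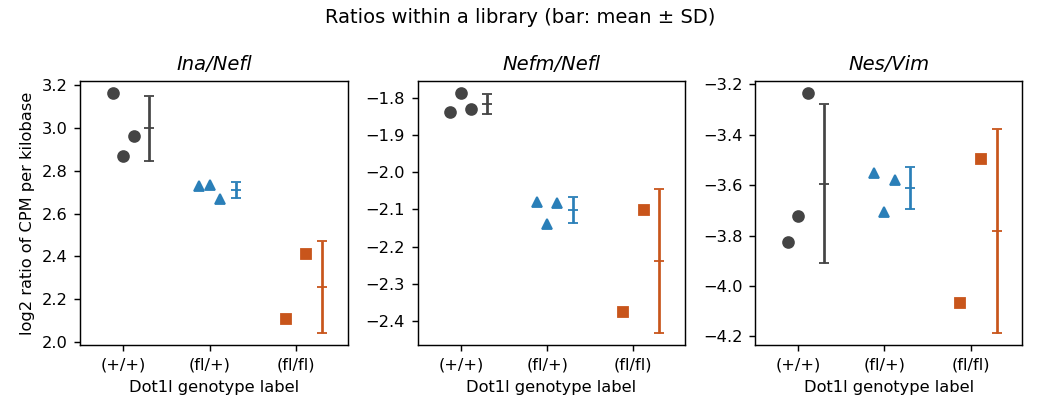
log2 ratio of CPM per kilobase for 3 pairs of members in each library by Dot1l genotype label, with bars at mean ± SD. The Dot1l(fl/+) libraries lay below the Dot1l(+/+) libraries for Ina/Nefl and Nefm/Nefl and within their range for Nes/Vim.

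The 6 lists of genes related to filaments are given beside the members. In the comparisons of Dot1l(fl/+) with either other genotype, edgeR and DESeq2 called 0 genes of any list. The median log2 difference of all genes was within 0.01 of 0 in each comparison, with 49.5% of the genes above 0 for Dot1l(fl/fl) against Dot1l(+/+) and 49.0% for Dot1l(fl/+) against Dot1l(+/+). Of the other intermediate filament genes, 16 of 19 passed the filter, and 12 were above 0 and 4 below in Dot1l(fl/+) against Dot1l(+/+), with a median of 0.16. The nuclear lamins were the most abundant of them: Lmnb1 was at 151, 141 and 125 CPM in Dot1l(+/+), Dot1l(fl/+) and Dot1l(fl/fl), Lmnb2 at 62.1, 64.7 and 54.8, and Lmna at 34.7, 39.9 and 40.2. The filament genes Gfap (astrocytes) and Krt5 and Krt14 (basal epithelium) did not pass the filter.

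Of the filament linkers, chaperones and turnover genes, 8 of 11 passed, with 7 below 0 in Dot1l(fl/+) against Dot1l(+/+) and a median of -0.16. Macf1, a spectraplakin that links actin to microtubules, was at 611, 568 and 514 CPM in Dot1l(+/+), Dot1l(fl/+) and Dot1l(fl/fl), while Uchl1, an abundant neuronal deubiquitinase, was at 1450, 1515 and 1543. Trim2, a ubiquitin ligase for Nefl, was at 358, 342 and 338 CPM. Of 14 kinase and phosphatase genes, 7 lay on either side of 0 in that comparison. Among them, Gsk3b differed by -0.23 and Cdk5r1, the activator of the neurofilament kinase Cdk5, by -0.04, whereas Ppp2ca differed by 0.10 on the log2 scale. Of 10 axonal motors, 6 were below 0, with a median of -0.03. Kif5c, the neuronal kinesin heavy chain, was at 1123, 1050 and 964 CPM in order of floxed alleles, Dync1h1, the dynein heavy chain, at 1259, 1180 and 1099, and the kinesin light chain Klc1 at 1063, 1065 and 1090.

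Of the 13 regulators of neurofilament RNA and transcription, 10 were below 0 in Dot1l(fl/+) against Dot1l(+/+), with a median of -0.10, and 4 were lower in every Dot1l(fl/+) library than in every Dot1l(+/+) library, against 5.97% of all genes. The most abundant were Sox4 at 998, 905 and 800 CPM, Elavl3, a neuronal RNA-binding protein, at 674, 593 and 557, and Sox11 at 615, 543 and 457 CPM in the 3 genotypes in order of floxed alleles. Of 21 other neuronal cytoskeleton and axon growth genes, 13 were below 0 with a median of -0.04. In Dot1l(fl/fl) against Dot1l(fl/+), 50.2% of all genes lay above 0, and 17 of these 21 genes were below 0, with a median of -0.13. Among them 8 did not overlap and were lower, against 9.57% of all genes. This comparison shares the Dot1l(fl/fl) libraries with the choice of the members. The lists were chosen with earlier results of these data known, so nothing is read from their counts of genes below 0 or of non-overlapping genes. The microtubule-associated Map1b was at 3410, 3120 and 2726 CPM, Mapt (tau) at 2754, 2736 and 2455, and Dpysl3, a collapsin response mediator, at 3786, 3694 and 3342. The part of the DA neuron markers, given above beside Ina, in the lists was not tested.

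**Figure D5:**
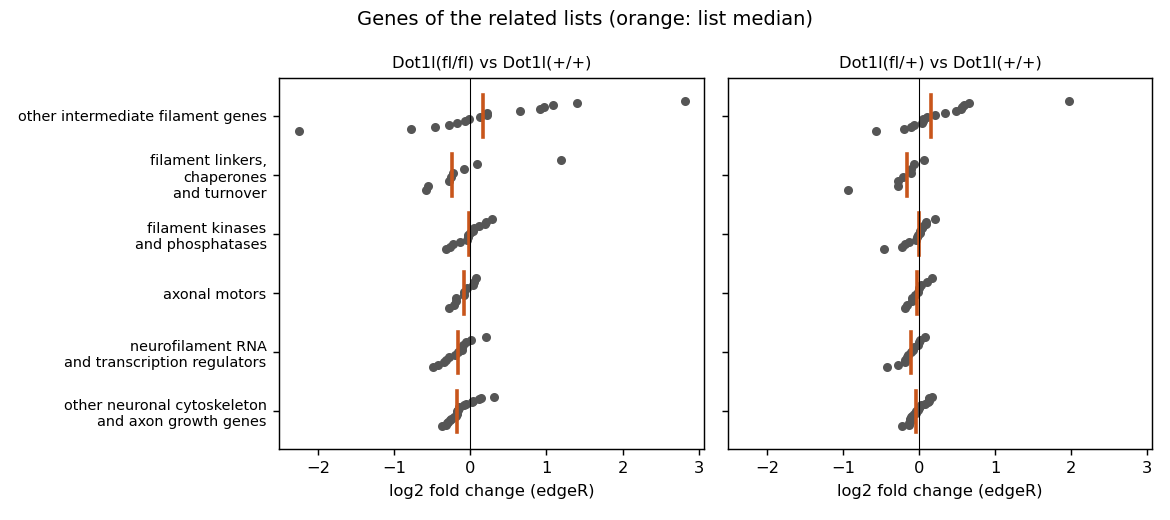
log2 fold change of each tested gene of the 6 lists (points) with the list median (orange line), for Dot1l(fl/fl) against Dot1l(+/+) on the left and Dot1l(fl/+) against Dot1l(+/+) on the right. The points farthest from 0 are genes of low count such as Krt8, Des and Bag3, and the median of the RNA and transcription regulators was -0.16 on the left and -0.10 on the right.

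The genes whose level ran most like that of Ina over the 8 libraries were Rgs8, Cdk5r1, Kctd12, Nova2 and Sobp, with Pearson's r of log2 CPM from 0.956 to 0.993 among 9952 genes with a mean of at least 10 CPM. The genes most like Vim were Tspyl4, Mchr1, Pmvk, Foxk2 and Gosr2, with r from 0.942 to 0.954. Nefl had an r of -0.84 with Ina. These values describe 8 libraries that fall into 3 genotypes and share depth differences, and the genes named were picked as the highest. They also include the difference in Ina between Dot1l(fl/fl) and Dot1l(+/+) that chose the group, so nothing is read from them.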

How the data were processed

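Raw counts of reads, 1 value per Ensembl gene and library, were deposited by the authors for 8 libraries. Per the study's methods a strand-preserving kit was used and reads were mapped to GRCm38.p4; the submitters' processing notes name bcl2fastq 2.17, Trimmomatic 0.30 and DESeq2 1.10.1, and the aligner, counter and strand setting were not given in the sources used here. The authors also deposited their own DESeq2 comparisons (fold changes, p-values), of which the gene symbol column alone was used. Exon lengths and coordinates came from GENCODE (GRCm38), which holds 99.1% of the identifiers.

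Counts of all 8 libraries were fitted together with edgeR 4.0.16 (quasi-likelihood F test, TMM, filterByExpr) in R 4.3.3, with Benjamini-Hochberg adjustment over 17988 genes and a threshold of 0.05. Ratios within a library were compared by exact permutation. The depth behind each value is the library total, between 13616922 and 43674673 counts, and 3 counts, the limit that a count of 0 allows, correspond to 0.0687 to 0.2203 CPM. Such limits cover counting error alone. Replicates differed by more than sampling noise, by chi-square values of 17.8 to 43.2 for each degree of freedom.

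Alternatives were DESeq2 1.42.0, RLE or upper-quartile factors, a filter at a mean count of 50 or none, and fits of the compared genotypes alone. Others were a block for the replicate number, a correction for length and GC content, and both together. The correction was an offset in edgeR from splines with 4 degrees of freedom. The longest transcript was also used as length, and each library was left out. The members and lists were chosen with earlier results of these data known. Named genes were all members, Dot1l, the 3 most abundant genes of each list, the 5 genes most like Ina and Vim, and the most abundant markers; other names were chosen after their values were seen. The scripts were tested on simulated data.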

Additional observations from a re-analysis of the deposited data

How the results depend on the processing

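Ina stayed below 0 and Nefl above 0 in all 3 comparisons under every alternative run. For Dot1l(fl/fl) against Dot1l(+/+), Ina lay between -0.40 and -0.33 with a library left out and between -0.42 and -0.36 otherwise, and Nefl between 0.25 and 0.48 and between 0.28 and 0.39. For Dot1l(fl/+) against Dot1l(+/+), Nefl was 0.13 without Dot1l(+/+) 1 and 0.26 without Dot1l(+/+) 2. The count of genes past the threshold over all genes, 0 in each comparison, was less stable. Without the filter it was 106 for Dot1l(fl/fl) against Dot1l(+/+), 11 for Dot1l(fl/+) against Dot1l(+/+) and 14 for Dot1l(fl/fl) against Dot1l(fl/+). It was 2 in the first with a mean count of at least 50, and 214 in the first and 1 in the last with DESeq2. With a library left out it ranged from 0 to 75 in the first (75 without Dot1l(+/+) 2, 50 without Dot1l(fl/fl) 2 and 4 without Dot1l(fl/fl) 1), was 0 throughout in the second, and ranged from 0 to 7 in the last, 7 without either Dot1l(fl/fl) library. Fits with 1 Dot1l(fl/fl) library assume that it varies like the other groups. The cause was not tested.

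Under the replicate block the count was 6 for Dot1l(fl/fl) against Dot1l(+/+), 0 for Dot1l(fl/+) against Dot1l(+/+) and 4 for Dot1l(fl/fl) against Dot1l(fl/+), and with the block and the length and GC offset together 17, 0 and 9. Libraries with the same number had correlations of their deviations from -0.031 to 0.0453, none of 7 pairs above 0.1. Those with different numbers ran from -0.051 to 0.045, and 3 of 8 libraries correlated best with their own number. With 2 or 3 libraries in a group, deviations from the group mean are tied to each other. The correlations thus cannot decide whether a number marks a litter. No member passed the threshold under the block in the comparisons tested.

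Values near 0 changed sign. Nes in Dot1l(fl/+) against Dot1l(+/+) was 0.0031 under the block, 0.049 under the length and GC offset and 0.068 under the combination, and ranged from -0.14 to 0.20 with a library left out (0.20 without Dot1l(+/+) 3), and Vim from -0.0058 to 0.038. In Dot1l(fl/fl) against Dot1l(fl/+), Nefh ranged from -0.96 to 0.28, Nes from -0.38 to 0.013 and Vim from -0.10 to 0.072. In the descriptive comparison of Dot1l(fl/fl) with Dot1l(+/+), ranges with a library left out were -0.13 to 0.025 for Nefm, -0.76 to 0.47 for Nefh, -0.41 to 0.028 for Nes and -0.077 to 0.091 for Vim, and with the length and GC offset Nefm was 0.023. The log2 ratio of Nes to Vim ranged from -0.13 to 0.16. Prph, with 1 to 42 counts in a library, is limited by depth.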

Other observations

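Markers of the other cells that a midbrain sort could hold were read as summed CPM over each list. Astrocyte markers, mostly Slc1a2 with little Aldh1l1, were at 307 to 446 CPM in Dot1l(+/+), 331 to 377 in Dot1l(fl/+) and 294 to 304 in Dot1l(fl/fl). Of the 6 markers in this list 4 passed the filter, Gfap not among them, so the sum mainly gives the level of Slc1a2. Microglia markers, led by Csf1r and C1qb, were at 93.3 to 115, 83.7 to 115 and 102 to 123 CPM, and blood markers, led by Hbb-bs and Hba-a1, at 13.7 to 18.1, 11.9 to 18.7 and 17.0 to 40.0. Endothelial markers, led by Kdr and Pecam1, were at 4.90 to 8.33, 4.37 to 14.6 and 10.4 to 11.8 CPM, and mural and mesenchymal markers, cells that also make Vim, led by Rgs5 and Col1a2, at 1.93 to 5.69, 3.30 to 7.45 and 2.02 to 4.43. The 6 endothelial markers that passed the filter were all above 0 against Dot1l(+/+), with a median of 0.81 in Dot1l(fl/fl) and 0.86 in Dot1l(fl/+). Of these 6, 0 were without overlap between the libraries in either comparison. Markers of cranial motor neurons, which make Prph, led by Slc18a3 and Isl1, were at 5.21 to 6.13, 5.14 to 8.12 and 5.62 to 9.18 CPM, with Phox2a and Tbx20 at 0 throughout.

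Serotonergic markers, led by Gata3 and Slc6a4, were at 0.656 to 5.62 CPM in Dot1l(+/+), 1.01 to 4.74 in Dot1l(fl/+) and 1.86 to 2.09 in Dot1l(fl/fl), and oligodendrocyte precursor markers, led by Olig1 and Olig2, at 9.19 to 14.1, 5.17 to 14.0 and 7.49 to 9.07. GABAergic markers, led by Slc32a1 and Gad2, were at 203 to 221, 194 to 228 and 233 to 263 CPM, with both libraries labelled Dot1l(fl/fl) above all others in this sum. The single markers did not share a direction. Of the 4 that passed the filter, 2 were above 0 and 2 below in Dot1l(fl/fl) against Dot1l(+/+), with a median of -0.13. Glutamatergic markers, led by Slc17a6 and Lhx9, were at 186 to 240, 213 to 237 and 194 to 234 CPM. The part of these cells in the levels of Nefl, Nefh, Prph and Vim was not tested.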
